A study of Mus musculus with 2 samples.

Results

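Dcn, Lum, Dpt, Fbln1, Postn, Thbs2, Cthrc1, Fap, Pdgfra and Pi16 are genes by which fibroblasts and cancer-associated fibroblasts (CAFs) are recognised. They were taken by name, and all 10 were measured in both count matrices, out of 19465 genes. The data came from mouse cerebellum with tumors of a breast cancer brain metastasis (BCBM) model, profiled with Visium CytAssist, a probe-based assay of fixed tissue in which each spot holds several cells. There were 2 sections of 5 µm, labelled as biological replicates, called section 1 (labelled HP-F1) and section 2 (HP-B6) here. Both were of genotype HP and had NO treatment by their labels, and no section without a tumor was analysed here, so that the comparisons were between regions within a section.

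By the study's methods, HP stands for a human HER2 transgene with the V777L change, driven by an actin promoter behind a Lox-STOP-Lox cassette, together with PIK3CA H1047R. Mammary tumors were started with an adenovirus carrying Cre, and luciferase-labelled organoids grown from them were dissociated. Then 1000 or 5000 cells were injected on 1 side of the cerebellum of syngeneic C57BL/6 mice aged 5 months, which keep their immune system, and the mice were imaged at 3 weeks. The organoids themselves held some fibroblasts by the study's account, so a fibroblast transcript could come from the graft or from the host, and these sources cannot be told apart here.

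In healthy brain, fibroblasts are few and are found in the meninges, around larger vessels and in the stroma of the choroid plexus, while the parenchyma lacks them. In carcinomas, fibroblasts gather in the stroma, where they make collagens and the proteins that coat or crosslink them, and they are commonly sorted into contractile, inflammatory and antigen-presenting kinds. The members fall into roles. Dcn (decorin) and Lum (lumican) are small leucine-rich proteoglycans that bind collagen fibrils, and Dpt (dermatopontin) binds decorin. Fbln1 (fibulin 1) joins elastic fibres and basement membranes. Postn (periostin), Thbs2 (thrombospondin 2) and Cthrc1 are matricellular or secreted proteins of remodelled tissue. Fap is a membrane protease of activated fibroblasts, Pdgfra is a receptor for platelet-derived growth factors, and Pi16 marks adventitial fibroblasts of many organs.

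Regions were set by counts of 57 neural genes, with none of the members used. Spots poor in neural transcripts formed the tumor side, and spots within 2 array steps of the border, each step being 100 µm, formed the edge on both of its sides. This gave 683 tumor, 233 edge and 2395 neural spots in section 1, and 884, 359 and 2700 in section 2. Median depth was 56775 UMIs per tumor spot and 7643 per neural spot in section 1, and 40532.5 and 9632.5 in section 2, so levels are given as counts scaled to a fixed total of UMIs (CPM) of the summed spots of a region. The map of regions and levels shows both sections. Sums cover several cell types, so more cells of a type and more RNA per cell cannot be told apart.

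**Figure D1:**
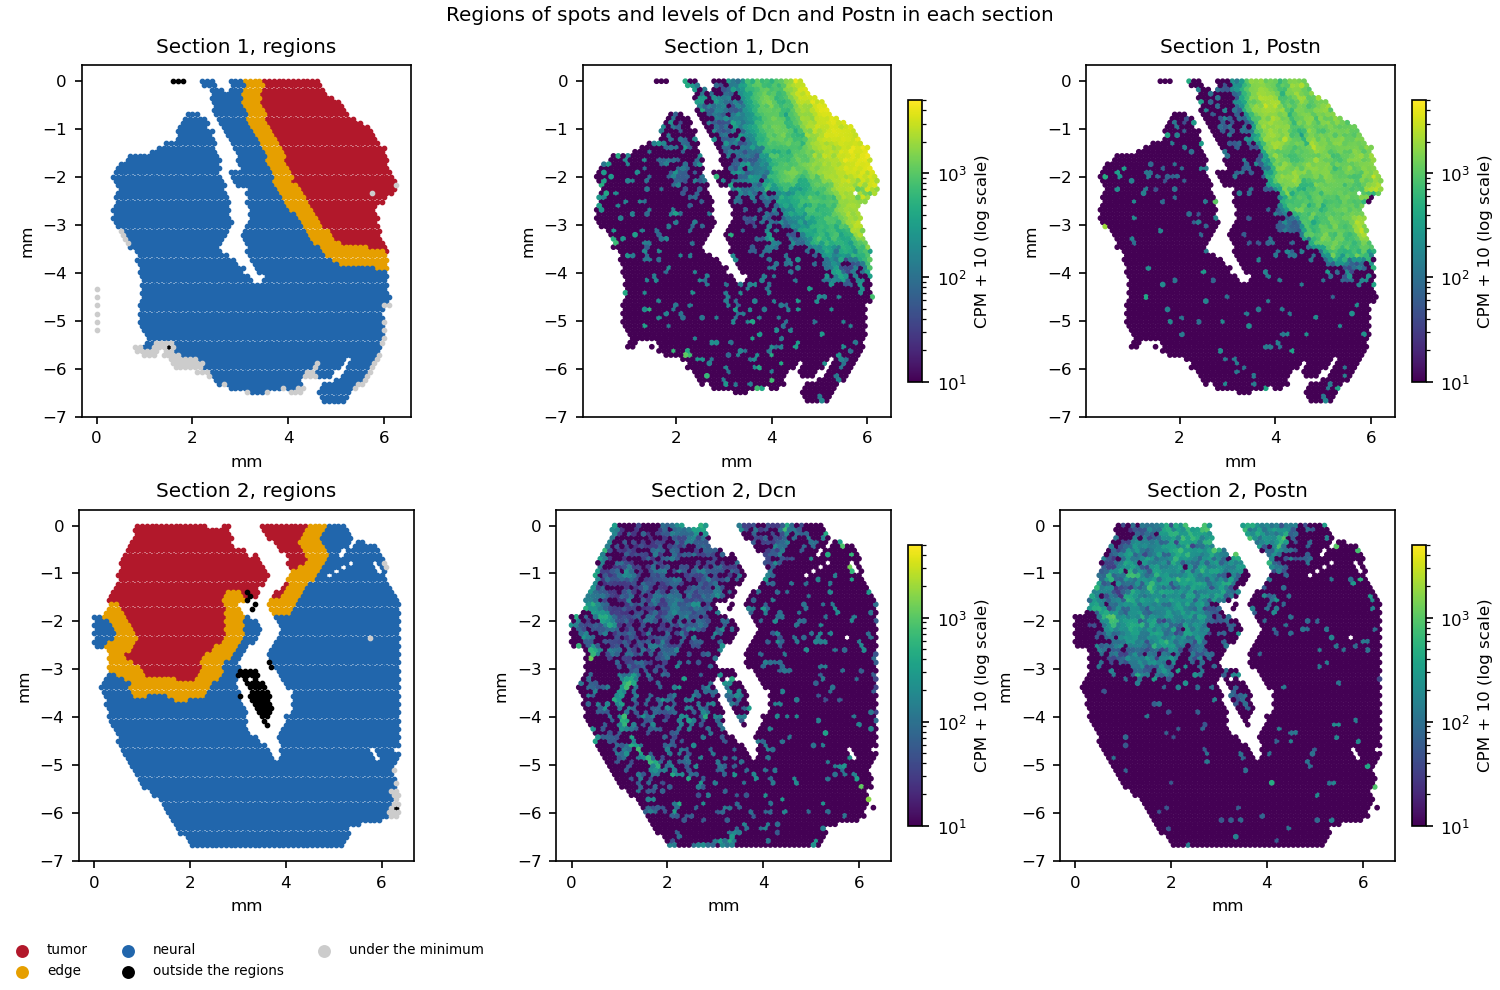
Each point is a spot at its array position, with section 1 in the upper row and section 2 in the lower row; the first column colors spots by region, the second by the level of Dcn and the third by that of Postn (CPM + 10, log scale), with distances in mm. Postn was high over the tumor side of both sections, at 1446 and 228 CPM in the tumor regions, while Dcn was at 1609 and 48.3 CPM.

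The tumor regions of the sections were unlike each other, and every value is therefore given per section. The epithelial genes of the injected tumor, an 18-gene list with keratins and Epcam, summed to 182 CPM in the tumor region of section 1 against 72.5 in its neural region, and to 15223 against 300 in section 2. Epcam, an epithelial adhesion molecule, stood at 7.33 CPM in the tumor region and 3.32 in neural tissue of section 1, and at 1989 and 30.5 CPM in section 2. Over the 18 genes the median log2 fold change of tumor over neural was 0.22 in section 1, with 5 genes above 1. In section 2 it was 5.60, with all 18 above 1. Some other genes of the list were above neural tissue in both. Gata3, a transcription factor of mammary epithelium and of some immune cells, was at 59.6 CPM in tumor and 8.96 in neural tissue of section 1, and at 76.9 and 6.25 in section 2. Esr1, the estrogen receptor, which stromal cells also express, was at 36.6 and 7.70 CPM in section 1 and at 17.5 and 5.63 in section 2. Erbb2 was at 18.3 and 5.31 CPM in section 1 and at 55.8 and 6.32 in section 2, although the probes are for the mouse gene and whether they read the human HER2 transgene is not known. The keratin gene Krt8 was at 26.0 and 4.22 CPM in section 1 and at 1725 and 32.9 in section 2. The tumor region of section 1 thus had Epcam and Krt8 levels far below those of section 2. Few genes of the list rose over neural tissue in section 1, among them Gata3, Esr1, Erbb2, Krt8 and Epcam. Its tumor region is defined by its low neural transcripts. The members summed to 8229 CPM in that region against 158 in neural tissue, and to 356 against 144 in section 2. What this contrast between sections rests on was not tested, with 1 section of each kind.

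**Figure D2:**
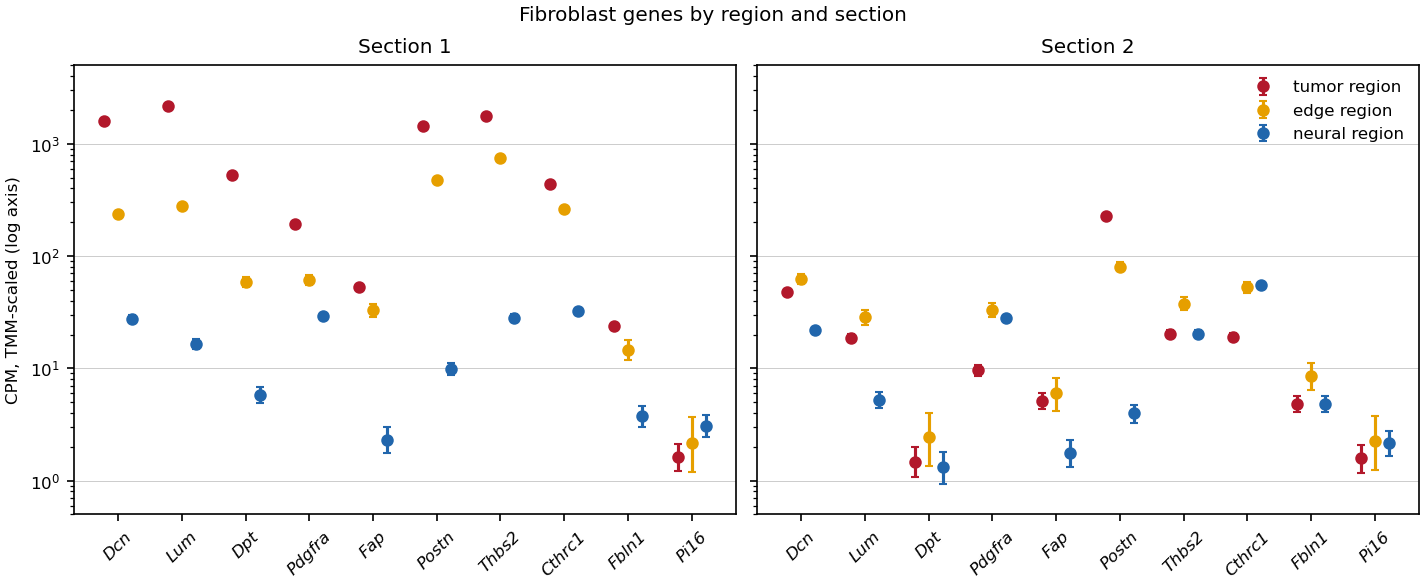
Level of each member in TMM-scaled CPM (log axis) in the tumor, edge and neural regions of each section; points are single libraries and bars are exact Poisson intervals at the 95% level. In section 1 the levels of 9 members lay highest in the tumor region and lowest in the neural region, and in section 2 this order held for Postn alone.

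Tumor regions were compared with neural regions to ask which of these genes were raised in the lesion. Postn rose 139-fold in section 1 and 51.2-fold in section 2 and was the 1 member of 10 called higher by edgeR's quasi-likelihood test with Benjamini-Hochberg adjustment, in a comparison that called 15.3% of 19230 genes higher and 15.6% lower. The other members differed between regions by far more in section 1 than in section 2. Over all 10, the median log2 fold change within section 1 was 5.04 and within section 2 it was 0.07, and in the joint fit it was 2.80 beside a median of -0.12 over all genes tested. Under DESeq2 6 members were called (Dcn, Dpt, Fap, Lum, Postn and Thbs2), in a fit that called 40.7% of genes. With 2 sections, a member that differed this much between them had a wide error in the fit.

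Edges were compared with the same neural libraries, so these results are not independent of the first. Postn was again the 1 member of 10 called higher, where 5.42% of genes were called higher and 4.95% lower, 10.4% in all, and DESeq2 called 3 members (Fap, Lum and Postn) and 27.4% of genes. The median log2 fold change of the members was 1.86 beside -0.06 over all genes, at 3.16 within section 1 and 0.82 within section 2. Between tumor and edge, edgeR called no member and 0.0% of genes, and DESeq2 called 1 member (Postn) among 1307 genes, or 8.78%. The median log2 fold change of the members for tumor over edge was 1.43 within section 1 and -0.58 within section 2.

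Postn, on chromosome 3 from 54359267 to 54391041 (GRCm38.p6), encodes a secreted protein that binds integrins and collagen and is made by fibroblasts, bone and, in some tumors, epithelial cells. Its level was 1446 CPM in the tumor region, 472 at the edge and 9.93 in neural tissue of section 1. The same regions of section 2 held 228, 80.4 and 3.96 CPM. Both sections were therefore ordered tumor, edge, neural, and the tumor and neural levels did not overlap between sections. The joint log2 fold change was 6.48 with a standard error (SE) of 0.50 for tumor over neural (edgeR adjusted p = 0.00449). For edge over neural it was 4.92 with SE 0.46 (edgeR adjusted p = 0.0310). For tumor over edge it was 1.57 with SE 0.40, or 3.06-fold in section 1 and 2.82-fold in section 2, and did not pass (edgeR adjusted p = 0.187). No call was made for the edge when sections were not blocked, at 5.31 with an edgeR adjusted p of 0.0897, nor with the neural side of the edge alone (2.96, edgeR adjusted p = 0.0964). Over the 12 other planned fits in edgeR and DESeq2, the one without the block included, the adjusted p ran from 1.75e-21 to 0.0897.

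The members with windows in the RefSeq promoter table (6 of 10) were searched for 4 short motifs on both strands, and 2 windows are shown for the genes of matrix remodelling that were high in section 1, of which Postn was high in section 2 too. Each covers the 250 bases before a start site of the RefSeq annotation of GRCm38.p6, and capitals mark matches. The Postn window, at chr3:54360857-54361106 on the plus strand, belongs to the second of its annotated starts. It is shown for its match, and the window of the first start has no TATA box match and 1 match of the SMAD core, 191 bases before that start. The Thbs2 window is at chr17:14694263-14694512 on the minus strand.
Postn: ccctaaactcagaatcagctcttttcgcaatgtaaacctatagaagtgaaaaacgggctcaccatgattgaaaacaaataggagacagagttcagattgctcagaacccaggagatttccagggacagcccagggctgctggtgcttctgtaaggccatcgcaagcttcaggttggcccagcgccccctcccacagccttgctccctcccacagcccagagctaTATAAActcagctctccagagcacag
Thbs2: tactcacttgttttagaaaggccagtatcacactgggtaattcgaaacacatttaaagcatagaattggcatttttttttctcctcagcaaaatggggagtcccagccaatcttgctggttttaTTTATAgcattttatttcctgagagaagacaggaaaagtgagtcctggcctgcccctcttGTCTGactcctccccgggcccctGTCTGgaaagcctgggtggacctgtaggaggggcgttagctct
The Postn window has a TATA box match (TATAAA) that starts 26 bases before the start site. The Thbs2 window has the reverse letters (TTTATA) 126 bases before the start, and the reverse of the core bound by SMAD proteins (CAGAC) at 66 and 43 bases before it. Of 32851 promoter windows of this length, 12.4% held TATAAA on either strand and 42.2% held CAGAC. Neither the AP-1 letters TGANTCA, in 6.75% of windows, nor the TEAD letters GGAATG, in 12.6%, were found in any window of a member. These are matches of letters and do not show a bound site.

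Thbs2, on chromosome 17 from 14665500 to 14694262, encodes a thrombospondin that limits vessel growth and collagen fibril assembly. Its levels in section 1 were 1753, 744 and 28.0 CPM over tumor, edge and neural regions, and in section 2 they were 20.2, 37.6 and 20.3 CPM. The section 1 tumor region thus stood 61.5-fold above neural tissue while that of section 2 was level with it. The joint log2 fold change was 2.64 with SE 1.70 and did not pass (edgeR adjusted p = 0.277).

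Cthrc1 (chromosome 15, 39076932 to 39087121) encodes a secreted protein of healing and fibrotic matrix. It was at 435, 261 and 32.1 CPM over tumor, edge and neural regions of section 1. In section 2 the tumor region held least, at 19.0 CPM beside 52.5 at the edge and 54.8 in neural tissue. The sections pointed in opposite directions, with a log2 fold change of 3.74 in section 1 and -1.50 in section 2 for tumor over neural, and the joint value of 0.96 (SE 1.46) did not pass (edgeR adjusted p = 0.621). Neural tissue thus held a higher Cthrc1 level than the tumor region did in section 2.

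Dcn and Lum lie side by side on chromosome 10, Dcn from 97479500 to 97518163 and Lum from 97565501 to 97572703. Dcn was at 1609, 238 and 27.7 CPM over tumor, edge and neural regions of section 1, and at 48.3, 62.7 and 21.8 CPM in section 2. Lum was at 2188, 277 and 16.4 CPM in section 1, and at 18.5, 28.4 and 5.24 CPM in section 2. Both were above neural tissue in the tumor and edge regions of each section, and in section 2 both were higher at the edge than in the tumor. For tumor over neural the joint log2 fold change of Dcn was 3.75 with SE 1.36 (edgeR adjusted p = 0.101). That of Lum was 4.82 with SE 1.58 (edgeR adjusted p = 0.0810), and neither passed.

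Dpt (chromosome 1, 164796663 to 164824274) was at 526, 58.7 and 5.80 CPM in section 1. In section 2 its tumor level was 1.48 CPM (interval 1.08 to 1.97), its edge level 2.42 and its neural level 1.31. Genes of skeletal muscle, a tissue that should be missing from cerebellum, gave medians of 1.34 to 2.77 CPM over the same regions, with single genes at 0.611 to 10.4, and the Dpt levels of section 2 lay among them. No Dpt expression could thus be set apart from background in section 2, whereas in section 1 the tumor region was 83.6-fold above neural tissue. The joint log2 fold change was 3.87 with SE 1.89 (edgeR adjusted p = 0.178).

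Fbln1 (chromosome 15, 85205949 to 85286294) had the fewest UMIs of the members after Pi16. Section 1 had 23.7, 14.6 and 3.73 CPM over tumor, edge and neural regions, and section 2 had 4.82, 8.56 and 4.81 CPM. Tumor over neural was thus 5.71-fold in section 1, over a neural level among those of the skeletal muscle genes. The tumor and neural levels of section 2 were alike and near those of these muscle genes. The joint value of 1.37 (SE 0.72) did not pass (edgeR adjusted p = 0.202).

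Fap, on chromosome 2 from 62500936 to 62575509, was low in counts and came closest to the threshold after Postn. Its levels were 52.8, 32.9 and 2.31 CPM over tumor, edge and neural regions of section 1, and 5.15, 5.98 and 1.77 CPM in section 2. The tumor region was 19.0-fold above neural tissue in section 1 and 2.49-fold in section 2, and the edge was 11.9-fold and 2.86-fold above it. The neural level of section 1 was itself among those of the skeletal muscle genes. The section 2 levels rest on 37 to 160 UMIs and lie among those of the skeletal muscle genes in each region. By that comparison of different probes, the levels of that section could not be set apart from background. It cannot decide on the folds, which compare the same gene between regions. The counting intervals of the tumor and neural Fap levels of section 2 did not overlap (4.38 to 6.01 and 1.33 to 2.31 CPM), and they cover counting error only. The joint log2 fold change of 2.97 (SE 0.82) for tumor over neural did not pass in the fit as planned (edgeR adjusted p = 0.0558), and it passed with another scaling and with a narrower edge. For edge over neural it was 2.62 with SE 0.81 (edgeR adjusted p = 0.114).

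Pdgfra, on chromosome 5 from 75151322 to 75198206, marks fibroblasts outside the brain and oligodendrocyte precursors within it. It was at 193, 61.5 and 29.2 CPM in section 1. In section 2 the tumor region held 9.58 CPM, below the 32.9 of the edge and the 28.1 of neural tissue. That tumor level was also below the highest skeletal muscle gene of the same region, at 10.4 CPM. The log2 fold change of tumor over neural was 2.71 in section 1 and -1.50 in section 2, and the joint value of 0.95 (SE 1.20) did not pass (edgeR adjusted p = 0.551). The neural levels had overlapping counting intervals (27.1 to 31.4 and 26.3 to 30.1 CPM). Olig1, a transcription factor of the oligodendrocyte lineage, was at 195 and 177 CPM in neural tissue and at 4.63 and 15.2 CPM in tumor. In the tumor region of section 1, Pdgfra was therefore high where this lineage marker was low.

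Pi16 (chromosome 17, 29318796 to 29328903) gave 14 to 76 UMIs in each of the 6 libraries. It was at 1.64, 2.18 and 3.08 CPM in section 1 and at 1.58, 2.26 and 2.16 CPM in section 2, within the reach of the skeletal muscle genes named above, whose highest value was 10.4 CPM. Its fold change of -0.69 (SE 0.24) did not pass (edgeR adjusted p = 0.0907), and no Pi16 expression could be set apart from background in any region.

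**Figure D3:**
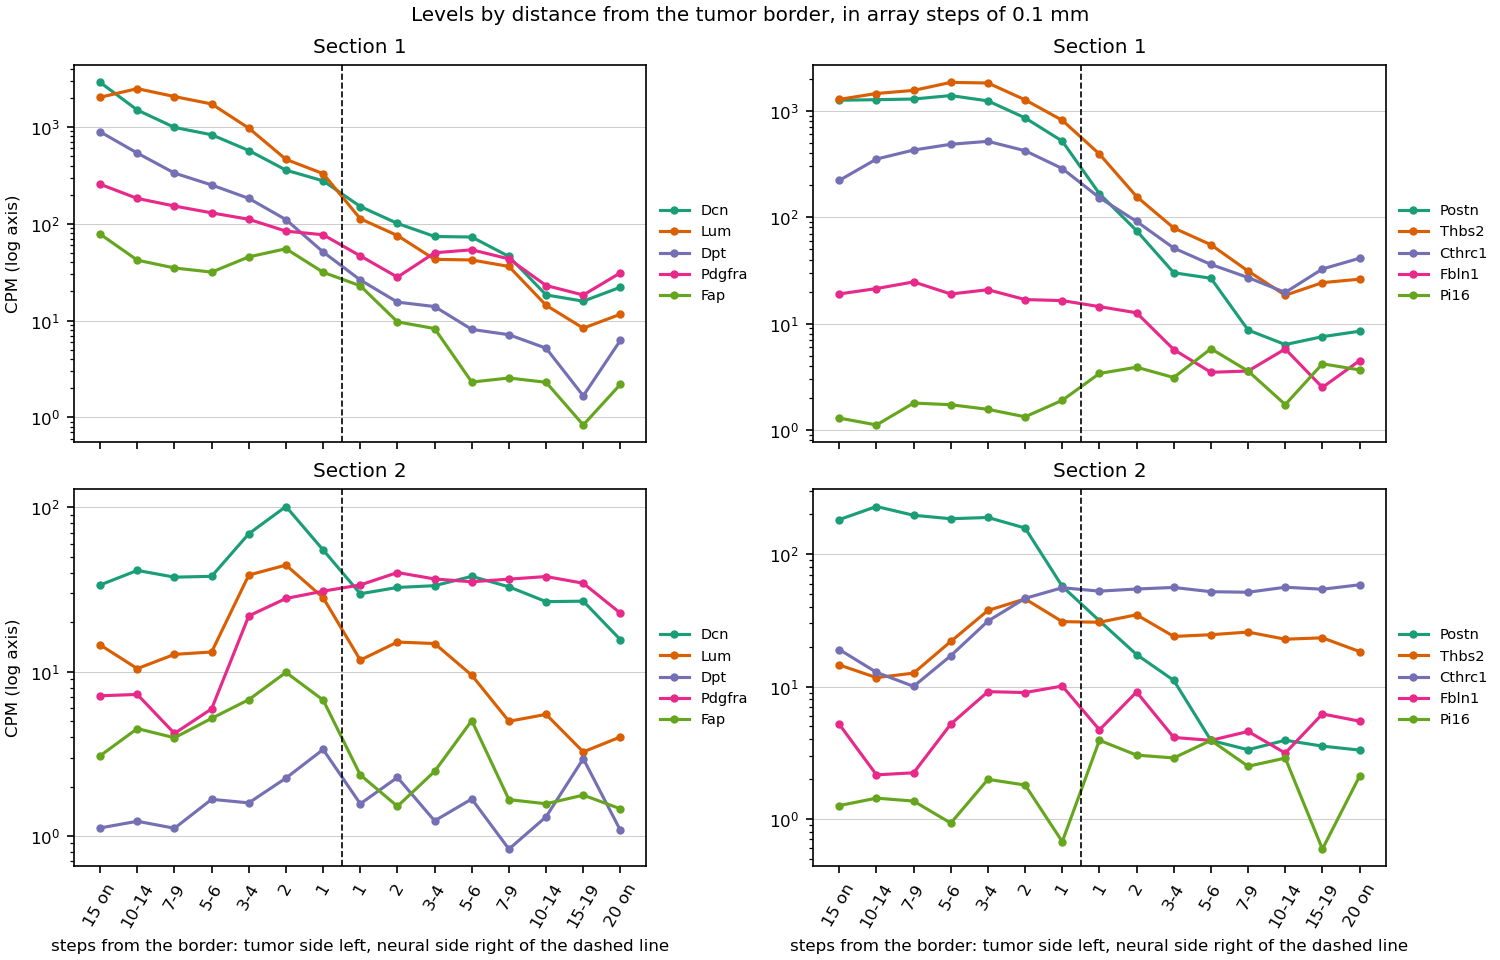
Plain CPM of each member (log axis) by array step from the tumor border, tumor side left and neural side right of the dashed line, in bins of at least 20 spots, with section 1 in the upper panels and section 2 in the lower. In section 1 Dcn climbed from 278 CPM at the border to 2892 in the deepest bin. In section 2 it peaked at 101 CPM 2 steps inside, or at 75.9 CPM without spots at the tissue surface.

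Distance from neural tissue separated the members within the lesion. The deepest bin is the one farthest from neural tissue and not a center. In section 1, 123 of its 187 spots were not at the tissue surface. In section 1 Dcn was 278 CPM (here without TMM scaling) at the first tumor step, 832 at steps 5 and 6 and 2892 from step 15 on. Dpt ran likewise from 51.2 to 892 CPM and Pdgfra from 77.1 to 256. Lum was highest at steps 10 to 14, at 2491 CPM. Thbs2 was highest at steps 5 and 6, at 1853 CPM, and Cthrc1 at steps 3 and 4, at 517 CPM, from which it came down to 222 in the deepest bin. Postn had a plateau of 1241 to 1393 CPM from step 3 on. The proteoglycan and Dpt transcripts of this lesion thus leaned away from the neural border and Cthrc1 toward it. Tumor spots at the outer surface of the tissue held more Dcn than those inside, at 2407 against 1314 CPM, and more Dpt, at 699 against 441. Without the surface spots Dcn still ran from 268 CPM at the first step to 2762 from step 15 on, Dpt from 49.4 to 871 and Cthrc1 from 480 at steps 3 and 4 to 237.

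Section 2 had another layout. Postn was 57.1 CPM at the first tumor step and 158 at the second, and stayed at 183 to 229 CPM further in. Dcn, Lum, Thbs2 and Fap were highest at the second tumor step, at 101, 44.6, 45.9 and 9.90 CPM, and further in they came down to 33.7, 14.6, 14.6 and 3.08 CPM in the deepest bin, though Fap rested on 22 UMIs in each of these bins. Pdgfra and Cthrc1 declined from the border inward, Pdgfra from 30.9 to 4.21 CPM at steps 7 to 9 and Cthrc1 from 55.8 to 10.0, and in the deepest bin they were at 7.14 and 19.0 CPM. Their levels at the first tumor step were close to those of neural tissue. Without the surface spots Dcn was at 75.9 CPM at the second step and 71.6 at steps 3 and 4. Lum was then at 41.2 and 37.5 CPM and Thbs2 at 48.6 and 38.8. Dcn, Lum and Thbs2 thus had a peak of level near the border, which for Dcn was lower without the surface spots. The level of Fap was too near background for a peak to be called. Pdgfra and Cthrc1 had no peak, and Postn was high throughout.

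On the neural side, Postn of section 1 was 166 CPM at the first step, 74.7 at the second and 8.68 at steps 7 to 9. In section 2 it was 31.4, 17.4 and 3.33 CPM at those steps. Thbs2 of section 1 came down from 393 CPM at the first neural step to 18.4 at steps 10 to 14. At the first tumor step Postn was at 519 CPM in section 1 and 57.1 in section 2, and Thbs2 at 816 in section 1. Both genes of section 1 thus came down at the border and over several steps past it, as did Postn of section 2.

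The members also differed in how many spots held them. In the tumor region of section 1, 7 members had a UMI in 98.0% to 100% of the spots, Fap in 84.9%, Fbln1 in 65.6% and Pi16 in 7.47%. Section 2 had Postn in 91.2% of its tumor spots, Dcn in 66.3%, Lum in 34.6%, Pdgfra in 23.9% and Dpt in 4.98%. There the 88 spots richest in each gene held 39.0% of the Dcn UMIs, 56.0% of the Lum UMIs and 30.1% of the Postn UMIs, a share that a low total raises by itself.

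**Figure D4:**
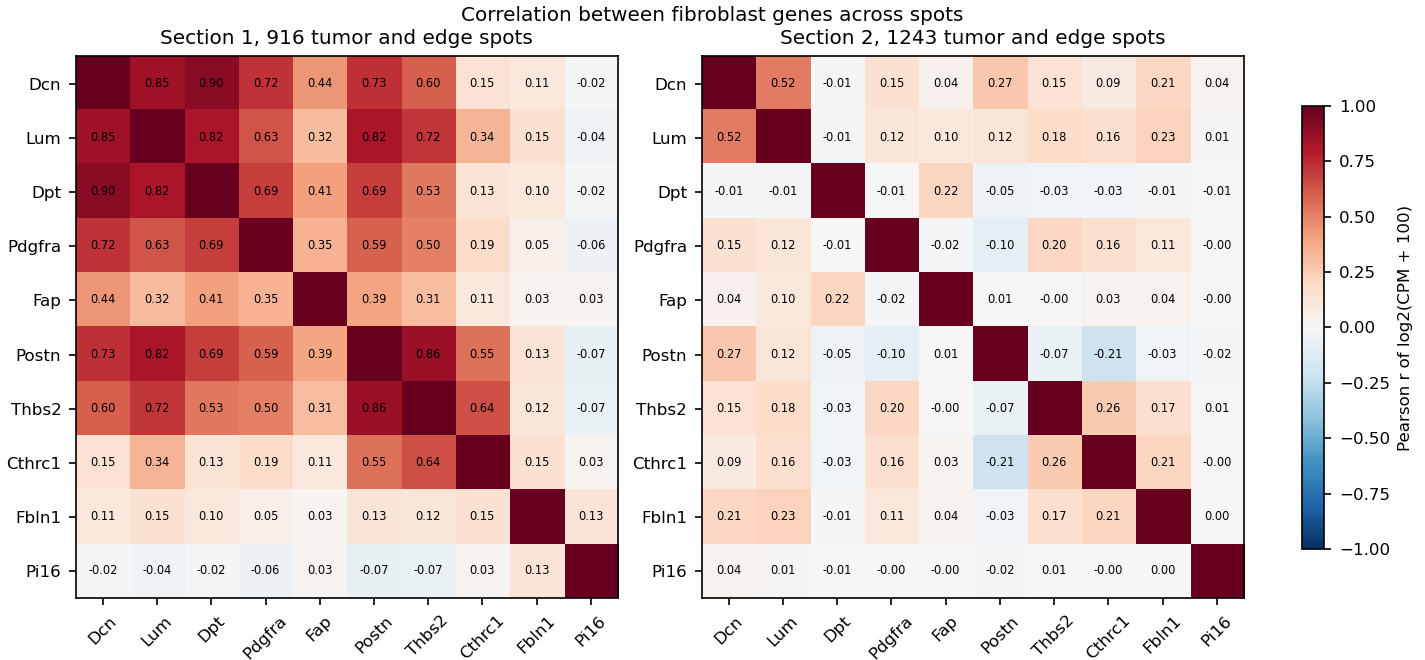
Pearson correlation between members of log2(CPM + 100) across tumor and edge spots, with section 1 (916 spots) left and section 2 (1243 spots) right. Postn and Thbs2 correlated at 0.86 in section 1 and at -0.07 in section 2, and Dcn and Lum at 0.85 and 0.52.

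Across the 916 tumor and edge spots of section 1 most of the abundant members went together. Dcn correlated at 0.90 with Dpt, at 0.85 with Lum and at 0.73 with Postn, and Postn at 0.86 with Thbs2 and at 0.82 with Lum. Cthrc1 stood apart, at 0.64 with Thbs2 and 0.55 with Postn but at 0.15 with Dcn and 0.13 with Dpt. Across 1243 spots of section 2, Dcn and Lum kept a correlation of 0.52, and Postn correlated at 0.27 with Dcn, at -0.07 with Thbs2 and at -0.21 with Cthrc1. Spots of a section share their library and border geometry, and low counts weaken a correlation, so these are descriptions.

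The genes most like Postn were collagens in section 1 and epithelial genes in section 2. Section 1 had Col3a1 at 0.92, Col1a2 at 0.90 and the matrix protease Mmp2 at 0.87. Section 2 had Slpi, a protease inhibitor of epithelia, at 0.70, then Wfdc18, the epithelial transcription factor Ehf and Ly6d, each at 0.65. The summed list of tumor epithelium correlated with Postn at 0.25 in section 1 and at 0.54 in section 2, and the summed fibrillar collagens at 0.90 and 0.32. Within the tumor spots alone the epithelial list was at 0.11 and 0.31 and the collagens at 0.71 and 0.051.

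Dcn was most like Igfbp5 (0.92), Ecrg4 (0.90) and Mgp (0.87) in section 1 and like Igf2 (0.49), Col3a1 (0.46), Mgp (0.44) and Aldh1a2 (0.42) in section 2. Igf2 and Aldh1a2, an enzyme that makes retinoic acid, are known in meningeal fibroblasts. Pdgfra was most like Igfbp5 (0.71) in section 1 and like Apod (0.36) and Olig1 (0.35) in section 2. The matrix metalloprotease Mmp14 (0.71), Col6a3 (0.66), Col5a1 (0.65) and Lrrc15 (0.65), a membrane protein of myofibroblast-like CAFs, were nearest to Cthrc1 in section 1. Over the mean of all members, and taking the lower of the correlations of the sections, the 8 nearest of 11290 genes were Col3a1 (0.88 and 0.52), Col1a2, Mgp, Fbn1, Col1a1, Aqp1, Bgn and Col5a2 (0.71 and 0.39).

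**Figure D5:**
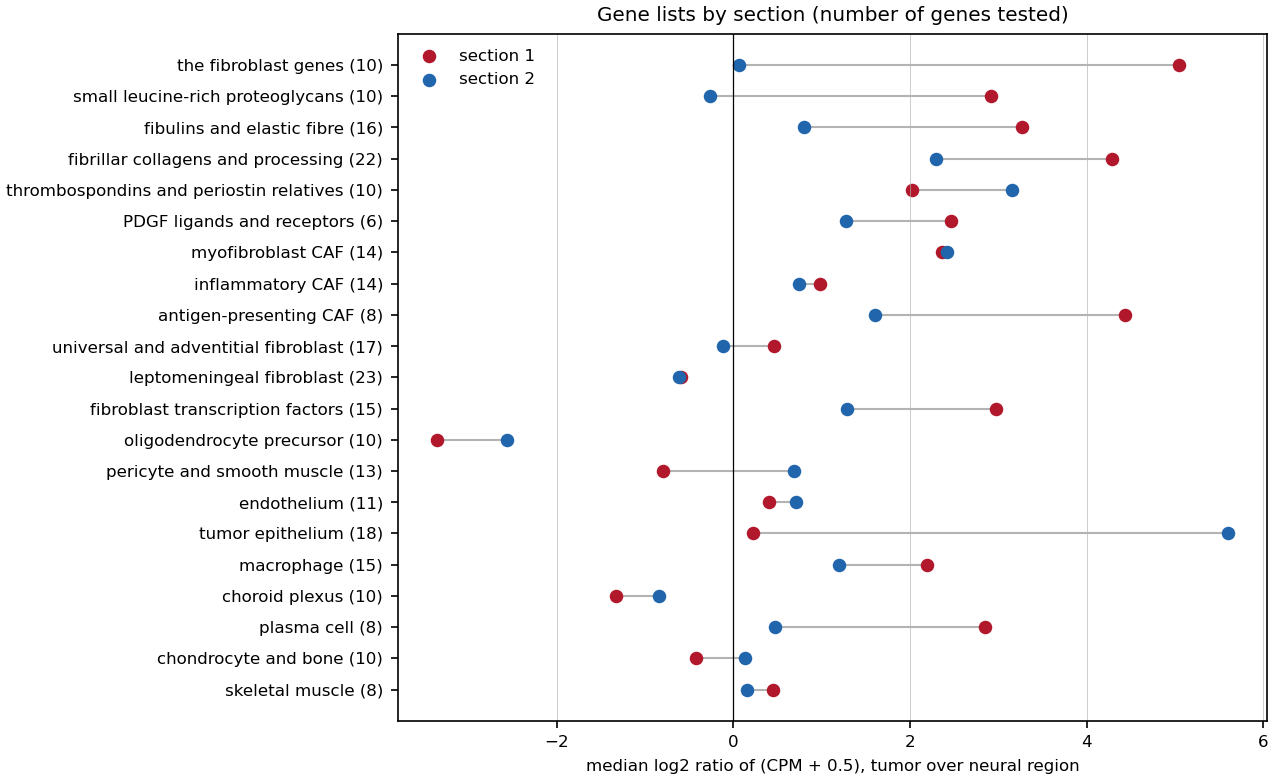
Median log2 fold change of each gene list within each section for tumor over neural, with the members and other lists of fibroblasts, matrix and neighbouring cell types. Points are medians over the genes of a list in 1 section; fibrillar collagens were at 4.29 and 2.29, the members at 5.04 and 0.07 and the tumor epithelium list at 0.22 and 5.60.

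Other genes of fibroblasts and their matrix were described by fixed lists, as counts called by edgeR and the median over the list, beside a median of -0.12 over all genes for tumor over neural. That comparison called 15.3% of all genes higher and 15.6% lower. Fibrillar collagens and their processing enzymes had 13 of 22 genes called higher and none lower, with a median of 3.38, at 4.29 in section 1 and 2.29 in section 2. Col3a1 rose by 5.31 on the log2 scale, Col1a1 by 5.04, Col6a1 by 5.01 and Col6a2 by 4.85. The levels behind them were far apart, as Col1a1 was at 24784 CPM in the tumor region of section 1 and at 229 CPM in that of section 2, against 262 and 18.4 CPM in neural tissue. Collagen transcripts were thus above neural tissue in both sections, while the median of the members in section 2 was 0.07.

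Relatives of the members were described in the same way, beside 15.3% of all genes called higher and 15.6% lower. Of 10 other small leucine-rich proteoglycans only Bgn (biglycan) was called, by 3.33 (SE 0.62, edgeR adjusted p = 0.0210), at 449 and 104 CPM in the tumor regions. This count is not above the share over all genes. The median of this list was 2.92 in section 1 and -0.26 in section 2, beside 5.04 and 0.07 for the members. Fibulins and elastic fibre genes had 5 of 16 called higher and none lower, led by Ltbp1, a binder of latent TGF-β (5.22), the crosslinking enzyme Loxl1 (4.22), Fbln2 (3.75) and Fbln7 (2.88). Ltbp1 was at 203 and 205 CPM in the tumor regions, so the sections were level in it. Of 10 thrombospondins and relatives of periostin, 5 were called higher and 2 lower. Tnc (tenascin C) rose by 4.84, Fn1 (fibronectin) by 4.68 and Tgfbi, the closest relative of periostin, by 3.76, and Spock1, a proteoglycan of neurons, fell by 4.65. Thbs1, the paralog of Thbs2, was at 229 CPM in the tumor region of section 1 and 5799 in that of section 2, the reverse of the order of Thbs2.

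Among other genes of PDGF ligands and receptors, 3 of 6 were called higher and none lower in the tumor: Pdgfc by 3.51, Pdgfb by 1.78 and Pdgfa by 1.31. Their tumor levels in section 1 and section 2 were 59.2 and 76.9 CPM for Pdgfc, 61.7 and 137 for Pdgfb, and 204 and 267 for Pdgfa. These 3 ligands were thus above neural tissue in both sections, and Pdgfra in section 1 but not in section 2. The ligand Pdgfd was lower in tumor than in neural tissue, at 10.0 against 22.3 CPM in section 1. In section 2 it was at 21.7 against 25.1 CPM, and it was not called. Pdgfrb, the receptor of pericytes and many fibroblasts, was at 294 and 43.8 CPM in tumor and at 19.3 and 21.7 in neural tissue, and was not called.

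Lists of CAF kinds were set beside the members. Over all genes, 15.3% were called higher and 15.6% lower in the tumor, and 5.42% higher at the edge. Genes of contractile CAFs had 8 of 14 called higher and none lower, with a median of 2.71, and Fn1, Cnn2 (3.66), Tpm2 (3.17) and Acta2 (2.80) led; Tpm2 was at 138 and 836 CPM in the tumor regions, higher in the epithelium-rich section. Lrrc15 stood at 142 and 1.67 CPM there. Genes of inflammatory CAFs had 4 of 14 called higher and 2 lower in the tumor, and 5 higher at the edge, where Ccl7 rose by 3.42, Has2 by 3.20 and Ptgs2 by 2.72, and Ccl2 was at 61.7 and 25.4 CPM against 6.45 and 3.76 in neural tissue; macrophages and endothelium are also known to make several of these. The 15 macrophage genes summed to 17839 and 18090 CPM at the edges, and their part in this result was not tested. Of 8 genes of antigen-presenting CAFs 1 was called higher, Slpi, which is an epithelial gene as well, and this count is not above the share over all genes. The median of this list was nevertheless 3.78, at 4.43 in section 1 and 1.60 in section 2, with 6 of 8 genes above 1 in each section. Cd74 was at 15205 CPM in tumor and 250 in neural tissue of section 1, and at 301 and 75.5 in section 2, and was not called. Cd74 and the class II genes of this list are not particular to fibroblasts. The macrophage genes summed to 13844 and 6265 CPM in the tumor regions of sections 1 and 2. The part of immune cells in the median of this list was not tested. Fibroblast transcription factors had 5 of 15 called higher, led by Snai2 (3.48), Twist1 (3.46), Runx2 (3.40) and Runx1 (3.28).

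Lists of fibroblasts of healthy tissue had calls in both directions, beside 15.3% higher and 15.6% lower over all genes. The lists are short and had no set test, so these counts are not read as a result about the lists. Genes of adventitial and universal fibroblasts had 5 of 17 called higher and 3 lower, with Anxa3 (3.26), Cd248 (3.23) and Ly6a (3.10) among the first and Penk (-2.88), a neuropeptide gene of neurons too, among the second. Genes of leptomeningeal fibroblasts had 2 of 23 called higher and 5 lower, and the median was -0.54. Mgp, an inhibitor of calcification made by many mesenchymal cells, rose by 3.98, while Nnat fell by 4.46, Ptgds by 3.71 and Zic1 by 3.06, each of which neurons or glia of cerebellum express as well. Slc6a13, a transporter of meningeal fibroblasts, was at 1.09 to 4.65 CPM over the 6 libraries. Pericyte and smooth muscle genes had 1 of 13 called higher and 2 lower (median 0.01), endothelial genes 3 of 11 higher and 1 lower, and oligodendrocyte precursor genes 1 of 10 higher and 8 lower. Chondrocyte and bone genes had 0 of 10 called higher and 1 lower, and plasma cell genes 1 of 8 higher, with a list sum of 1560 CPM in the tumor region of section 1 and 178 in that of section 2.

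Meninges cover the cerebellum, so neural spots at the rim of the tissue were compared with those further in. The members summed to 212 CPM at the rim and 183 CPM inside in section 1, and to 157 and 148 CPM in section 2, ratios of 1.16 and 1.06. Part of the rim lies at the frame of the capture area and is no brain surface, 23 of 506 spots in section 1 and 177 of 579 in section 2, and without those spots the ratios were 1.11 and 1.04. The higher summed level at the rim was small in both sections and has no test. Of the sums inside, Cthrc1 and Pdgfra gave 38.0 and 35.1 CPM in section 1, and 58.1 and 29.3 in section 2. Across neural spots Pdgfra was nearest to oligodendrocyte genes and Cthrc1 to a neuronal gene. The sum is therefore no measure of meningeal fibroblasts alone. Single members differed from the sum. Lum was at 30.3 CPM at the rim and 17.4 inside in section 1, and at 6.67 and 5.15 in section 2. Thbs2 was at 38.7 and 32.1 CPM in section 1, and at 30.4 and 19.0 in section 2. Pdgfra was at 31.5 CPM at the rim against 35.1 inside in section 1, and at 28.0 against 29.3 in section 2. These rim levels rest on 105 and 143 UMIs, and the difference in section 2 is too small to be read as a direction. Cthrc1 of section 2 was lower at the rim, on 255 UMIs there. Fap in section 1 and Dpt and Pi16 in section 2 had 7, 6 and 11 UMIs at the rim. Those counts are too few to give a direction. The differences of single members have no test.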

How the data were processed

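The authors aligned and counted the reads of 2 Visium CytAssist sections with Space Ranger 2.1.1 on build mm10, per the submitters' processing notes, and deposited raw counts, not normalized, of unique molecular identifiers (UMIs) for each gene in each spot beneath tissue. The sections held 3406 and 4017 spots. The sections shared 3096 spot barcodes, which are array positions and not cells. The authors' later steps, clustering and deconvolution of spots, are not in these counts, and cluster colors of printed figures were not read. The 10 genes, the gene lists and the rules were chosen with earlier results of these data known.

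Spots with at least 500 UMIs and 10 genes were kept. The percent of UMIs from neural markers was summed over each spot and its up to 6 neighbours and split by Otsu's threshold on log10(percent + 0.01), which fell at 0.860% in section 1 and 1.44% in section 2. Connected groups of at least 50 spots gave a tumor side and a neural side. Summing the spots of a region within a section gave 6 libraries, with totals between 6055351 and 37059420 UMIs.

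The fit used edgeR 4.0.16 in R 4.3.3: filterByExpr by region, TMM factors (0.878 to 1.18), glmQLFit with robust estimation and glmQLFTest, with the section as a block, since the regions of a section come from 1 mouse. Residual degrees of freedom were 2, and blocking lowered the common dispersion from 0.156 to 0.0887. All 10 genes passed the filter. Genes at a Benjamini-Hochberg adjusted p under 0.05 over 19230 genes were called. Fold changes within a section used CPM + 0.5. Levels by distance, at the rim and in parts of regions are CPM without TMM factors. Correlations used log2(CPM + 100), except those in neural tissue, which used sums of neighbouring spots and a smaller constant. Levels are not compared between genes, since probes differ in efficiency, except that skeletal muscle genes served as a rough guide to background. Poisson intervals at the 95% level cover counting error only. DESeq2 1.42.0, other scalings, filters, edge widths, cuts and neural scores were tried as alternatives. All 10 genes are described; of each list up to 4 called genes with the largest change are named, and other genes were named after their values were seen. Promoters and loci are from RefSeq tables of GRCm38.p6. The fit was also run on simulated counts with a smaller spread than these data and no difference between sections. That run does not cover genes that differ between sections, as most members did. Spots were processed in Python 3.11.15.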

Additional observations from a re-analysis of the deposited data

Results flagged for a closer look

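Section 2 had 56 spots in pieces too small for any region, with 616406 UMIs in all. The members named next had counting intervals there that lay above the neural ones, and the other members did not. How many of all genes did so was not counted, so this is no result about the members as a set. Dcn was at 61.6 CPM against 22.6 in neural tissue, Lum at 45.4 against 5.38, Pdgfra at 68.1 against 29.1, Fap at 77.9 against 1.83, Postn at 29.2 against 4.10 and Fbln1 at 30.8 against 4.98, all without TMM factors. These spots were rich in the choroid plexus gene Ttr, at 191749 CPM, and choroid stroma is a known site of fibroblasts. Fap rested on 48 UMIs there (57.4 to 103 CPM). In the 49 spots with choroid plexus markers at 0.2% of UMIs or more, a threshold chosen after seeing the data, it was at 84.1 CPM (61.8 to 112). Section 1 had 8 such spots, without a Fap UMI, which allows up to 75.9 CPM. The difference was seen in 1 section and has no test.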

How the results depend on the processing

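Postn was called for tumor over neural under 12 of 12 other settings with a test, with log2 fold changes of 6.17 to 6.91, and for edge over neural under 11 of 12, with 4.07 to 5.37. On leaving out 1 section each, with no test, the first was 5.68 to 7.12. Between tumor and neural tissue, where 1 member was called, 2 were called with RLE factors (Fap, Postn), 2 with library size as the only scaling (Postn, and Pi16 as lower), 2 with an edge of 1 step (Fap, Postn) and 6 with DESeq2. For edge over neural, where 1 was called, no replicate block gave 0, DESeq2 gave 3 (Fap, Lum, Postn), and edge spots of the neural side alone, an alternative added after seeing the data, gave 0. Between tumor and edge, where 0 were called, DESeq2 gave 1 and edge spots of the neural side alone gave 1, Postn in both. The block changed no other count of members called. Library size alone moved the median of all genes for tumor over neural to -0.45. Counts over all genes moved more. For tumor over neural 4274 genes were called without the block, against 5945. For edge over neural the 1994 became 1062 without the block, 4076 with DESeq2, 1325 with an edge of 1 step, 3582 with the tumor side of the edge alone and 0 with its neural side alone. For tumor over edge the 0 became 480 with RLE factors, 490 with library size alone, 335 with an edge of 1 step, 575 with a cut set from the median of the neural percent, 197 with the score of the single spot, 487 with neuronal markers, 900 with the neural side of the edge alone and 1307 with DESeq2. The cause was not tested. Of 440 alternative values of single members, 421 kept their direction and 19 changed sign, 13 of them on leaving out section 1. Fbln1 and Cthrc1 had small joint values for tumor over edge, at 0.10 and 0.089, over opposite changes in the sections. Fbln1 was at 0.68 in section 1 and -0.77 in section 2, and Cthrc1 at 0.73 and -1.44. The joint value of Fbln1 turned to -0.13 with library size alone. That of Cthrc1 turned to -0.15 with library size alone and -0.078 with an edge of 3 steps. Pi16 turned to 1.25, 0.80 and 0.45 as raw UMIs per spot for tumor over neural, edge over neural and tumor over edge. The rim over interior ratio of the summed members was 1.11, with 1.08 to 1.14 under the alternatives and 1.06 to 1.16 on leaving out 1 section each.

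The fit rests on 2 sections and 2 residual degrees of freedom. Pi16 and, in section 2, Dpt, Fap, Fbln1 and Pdgfra of the tumor region had levels among those of genes of absent tissue. So did Fap and Fbln1 of the neural region of section 1, where those genes ran from 0.649 to 4.22 CPM. The sections differ in the epithelial content of the tumor region, so a difference between them cannot be told apart from that content.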

Other observations

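Neural tissue held a few spots rich in Dcn. In section 1, 42 of 2395 neural spots had at least 3 Dcn UMIs, a threshold chosen after seeing the map, and held 23.5% of the neural Dcn UMIs in 3.10% of all neural UMIs. In section 2, 38 of 2700 spots held 21.0% in 1.83%. Choosing spots by Dcn raises these shares by itself. Neural Dcn was at 74.0 CPM at steps 3 and 4 and 18.4 at steps 10 to 14 in section 1. In section 2 it was at 33.4 and 26.7 CPM. How near the chosen spots lay to the tumor border was not examined. Col1a2 was at 1096 CPM in them against 206 in the other neural spots of section 1, and at 79.7 against 44.5 in section 2. Vwf, a protein of endothelium, was at 147 CPM against 38.2 in the other neural spots of section 1 and at 246 against 49.5 in section 2. In section 2 the smooth muscle gene Acta2 was at 94.5 CPM against 10.3, Lum at 25.9 against 5.03, Igf2 at 40.8 against 13.4, Aldh1a2 at 33.4 against 10.2 and Slc6a13 at 14.8 against 4.62, the last 3 being genes known in meningeal fibroblasts, with 8 to 22 UMIs behind them. In section 1 Lum was likewise higher in these spots, at 71.1 CPM against 17.8, and Aldh1a2 at 20.1 against 10.1, on 46 and 13 UMIs. Acta2 was higher there too, at 40.2 CPM on 26 UMIs. Igf2 of section 1 was level, at 23.2 against 23.3 CPM. Slc6a13 (1.55 against 4.41) and the smooth muscle gene Myh11 (1.55 against 4.61) were lower in these spots of section 1, on 1 UMI each. These values, without TMM factors, are descriptions of chosen spots.

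Across neural spots Pdgfra was most like Apod (correlation 0.39 in section 1 and 0.38 in section 2), Klk6 (0.36 and 0.38) and Cldn11 (0.35 and 0.34), genes of myelinating oligodendrocytes. Cthrc1 was most like Stmn2, a neuronal gene (0.25 and 0.35). Dcn was near Cp (0.37 and 0.35) and Vwf (0.34 and 0.43). These are over 6988 genes, with neighbouring sums that share counts and a library.

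The tumor side of section 2 lay in a piece of 945 spots and one of 119. Postn was at 194 and 172 CPM in these pieces and Epcam at 1676 and 1522. Dcn was at 47.0 and 38.6, Pdgfra at 9.53 and 19.4, and Cthrc1 at 18.3 and 36.2.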
